A study of Homo sapiens with 8 samples.

Results

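Accessible sites in the outer 2 Mb of the human autosomes were examined in mitotic cells with active or inhibited Plk1. A peak belonged to this subtelomeric set when it started within the first 2 Mb of chromosomes 1 to 22, or ended within 2 Mb of the largest peak end found on its chromosome over all 8 peak lists. In all, 76162 of 1534462 peaks on these chromosomes met the rule, or 7484 to 11604 per list. They came from 39 of the 44 chromosome ends, and the 5 ends without a member were the short arms of the acrocentric chromosomes 13, 14, 15, 21 and 22. The next 8 Mb inward of the same 39 ends, from 2 to 10 Mb, held 255236 peaks and served as the comparison.

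The cells were hTERT RPE-1, a retinal pigment epithelial line immortalised with telomerase, of genotype Plk1-/- with EGFP-Plk1as, an analog-sensitive Plk1 that the bulky purine analog 3MB-PP1 inhibits. All 8 libraries shared that genotype and the same arrest, 16 h in 5 µM STLC, a kinesin-5 inhibitor that holds cells in prometaphase, followed by mitotic shake-off. For 2 h more in STLC, 4 libraries received 0.5% DMSO and 4 received 10 µM 3MB-PP1. None of the 8 combined 3MB-PP1 with another form of Plk1. ATAC-seq, in which the transposase Tn5 cuts into accessible DNA, was run on 50000 cells per reaction with a mitotic index above 95%. The labels do not say whether replicates were separate cultures, so p-values measure the spread between these libraries.

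Subtelomeres are the gene-dense, GC-rich stretches next to the telomeric TTAGGG repeats. Their outermost parts consist of segments copied between chromosomes, including WASH, DDX11L and olfactory receptor genes. Genes outside those segments, such as the alpha globin cluster, lie further in. Plk1 is a kinase that drives mitotic entry, spindle assembly and the removal of cohesin from chromosome arms.

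The start sites of these regions differ widely in CpG content, and 6 promoters show the range. Each is 300 bases of RefSeq sequence from GRCh38.p14, from 250 bases before to 50 after a start site, read 5′ to 3′ on the gene's strand, with every CG in capitals. TRIM41 (a ubiquitin ligase gene; chr5:181223031-181223330, plus strand, 27 CG) and CIRBP (a cold-inducible RNA-binding protein; chr19:1269082-1269381, plus, 37 CG) lie in regions with some of the highest pileups on the autosomes. FGFR3 (a fibroblast growth factor receptor; chr4:1793043-1793342, plus, 51 CG) and the olfactory receptor gene OR4F5 (chr1:65169-65468, plus, 0 CG) had no peak within 1 kb in any list. ZMYND11, a chromatin reader gene, has 8 listed start sites, of which the first (chr10:129838-130137, plus, 4 CG) had no peak within 1 kb and another (chr10:135205-135504, plus, 43 CG) had one in all 8 lists.
TRIM41: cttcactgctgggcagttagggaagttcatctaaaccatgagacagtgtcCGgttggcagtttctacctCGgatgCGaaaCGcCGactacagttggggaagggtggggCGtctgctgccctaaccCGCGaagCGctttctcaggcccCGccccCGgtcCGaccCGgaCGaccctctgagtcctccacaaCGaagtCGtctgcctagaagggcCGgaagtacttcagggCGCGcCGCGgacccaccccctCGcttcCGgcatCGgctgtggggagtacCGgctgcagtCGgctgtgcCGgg
CIRBP: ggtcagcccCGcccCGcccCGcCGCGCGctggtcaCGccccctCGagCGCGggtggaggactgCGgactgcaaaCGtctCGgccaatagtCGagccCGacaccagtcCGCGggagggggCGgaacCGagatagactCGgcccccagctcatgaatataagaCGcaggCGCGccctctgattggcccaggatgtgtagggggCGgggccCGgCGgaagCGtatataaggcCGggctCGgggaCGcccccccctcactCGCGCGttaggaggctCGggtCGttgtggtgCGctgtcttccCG
FGFR3: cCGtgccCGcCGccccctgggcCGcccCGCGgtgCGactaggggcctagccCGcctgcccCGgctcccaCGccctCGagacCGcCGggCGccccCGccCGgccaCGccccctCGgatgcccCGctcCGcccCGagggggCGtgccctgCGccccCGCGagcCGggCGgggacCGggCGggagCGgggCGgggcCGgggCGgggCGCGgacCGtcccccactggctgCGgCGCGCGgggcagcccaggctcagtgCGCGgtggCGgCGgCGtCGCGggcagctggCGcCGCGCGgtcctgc
OR4F5: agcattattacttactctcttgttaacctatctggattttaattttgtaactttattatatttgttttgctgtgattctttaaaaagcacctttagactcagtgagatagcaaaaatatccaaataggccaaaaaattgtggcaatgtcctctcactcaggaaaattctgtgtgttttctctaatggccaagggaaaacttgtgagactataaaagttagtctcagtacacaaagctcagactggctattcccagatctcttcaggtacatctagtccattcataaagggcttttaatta
ZMYND11 upstream: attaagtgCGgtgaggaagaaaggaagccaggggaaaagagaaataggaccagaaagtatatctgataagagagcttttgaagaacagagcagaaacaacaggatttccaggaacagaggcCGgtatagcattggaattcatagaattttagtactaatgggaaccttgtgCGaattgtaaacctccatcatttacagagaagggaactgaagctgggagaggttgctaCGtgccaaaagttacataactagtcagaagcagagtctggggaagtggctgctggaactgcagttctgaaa
ZMYND11 downstream: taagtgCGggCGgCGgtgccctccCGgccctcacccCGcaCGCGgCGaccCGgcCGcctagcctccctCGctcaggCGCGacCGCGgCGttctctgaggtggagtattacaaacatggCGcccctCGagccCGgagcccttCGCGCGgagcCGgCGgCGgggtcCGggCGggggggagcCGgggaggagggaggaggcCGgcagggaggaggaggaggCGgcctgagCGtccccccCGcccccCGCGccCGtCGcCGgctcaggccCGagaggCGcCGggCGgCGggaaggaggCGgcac

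The outer 2 Mb held more peaks per Mb than the next 8 Mb inward in all 8 lists. The number of peaks per Mb was 95.9, 100.1, 122 and 130 in the DMSO lists of replicates 1 to 4, against 74.9, 83.6, 102 and 112 inward. With 3MB-PP1 it was 137, 128, 149 and 114, against 109, 112, 126 and 98.1 inward. The ratio of outer to inward density was 1.20 ± 0.05 (SD, n = 8), with a range from 1.15 to 1.28 and an exact sign-flip p of 0.0078, the smallest that 8 libraries allow. Peaks there were also longer, by 38.2 ± 9.3 bp in the median (SD, n = 8; 28 to 57 bp; exact sign-flip p = 0.0078). Adjusted over the 3 comparisons of position, p was 0.0078 for both. All sign-flip tests of zones and arms took the 8 libraries as independent. Same-numbered DMSO and 3MB-PP1 libraries deviated together, however, and 4 pairs allow no p below 0.125. Among the strongest peaks, those whose −log10 q was 5 or more, the density ratio was 1.88 (exact sign-flip p = 0.0078) and the sign of the length difference turned, to -43.9 bp (p = 0.11 by the same exact test).

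Pileup is the fragment coverage in a peak, and it was ranked within each list over chromosomes 1 to 22, so that the median peak stands at percentile 50. The median subtelomeric peak stood at percentile 72.2, 76.6, 75.6 and 80.1 in the DMSO lists and at 77.2, 80.9, 79.8 and 81.2 in the 3MB-PP1 lists. Inward peaks stood between 56.9 and 63.4. The difference was 16.9 ± 0.89 percentile points (SD, n = 8), positive in 8 of 8 libraries (exact sign-flip p = 0.0078, adjusted p = 0.0078). It was 9.21 points among peaks whose −log10 q was 5 or more and 4.60 points when peaks were ranked by −log10 p (exact sign-flip p = 0.0078 for each). Between 17.3% and 31.9% of subtelomeric peaks were in the top 10% of their list by pileup, against 9.66% to 13.02% inward.

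Ranking the same peaks by fold enrichment, the authors' ratio of a peak's pileup to its background, reversed this order. By fold enrichment the median subtelomeric peak stood at percentile 27.3, 24.4, 26.1 and 22.3 in the DMSO lists and at 25.1, 22.1, 24.5 and 21.7 in the 3MB-PP1 lists, against 38.6 to 40.3 inward. The difference was -15.1 percentile points and negative in every library (exact sign-flip p = 0.0078). Whether the caller added a constant to both terms of this ratio is not given in the sources used here. Dividing each pileup by its fold enrichment therefore gives only an approximate, implied background. Its median in the outer 2 Mb was 1.27 to 1.33 times the inward median, while median pileup was 1.19 to 1.25 times and median fold enrichment 0.956 to 0.970 times the inward value. In all 8 libraries the called peaks were therefore higher, over an implied background that was higher by a larger factor. What raised that background was not tested. Median −log10 q in the outer 2 Mb was 1.51 to 1.77, close to the limit of the lists at a q of 0.1. A peak over a higher background needs more pileup to be called, and how far this sets the 2 orders was not tested.

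Within the outer 2 Mb the measures changed with distance. The outermost 0.1 Mb had 94.6 ± 9.23 peaks per Mb (mean ± SD, n = 8 libraries), fewer than the 129 ± 17.6 between 0.1 and 0.5 Mb, and density then fell to 119 ± 19.9 between 1.5 and 2 Mb. The first value counts the full 0.1 Mb at every end. No short-arm region called in all 8 lists began before position 10012, and any bases there that cannot yield peaks lower that density. Median pileup percentile was 72.9 ± 3.02 in the outermost 0.1 Mb, 79.5 ± 2.84 between 1 and 1.5 Mb and 56.9 ± 0.749 between 9 and 10 Mb. Fold enrichment followed another course, with a mean percentile of 59.2 in the outermost 0.1 Mb, 29.5 between 0.1 and 0.5 Mb and 21.3 between 1 and 1.5 Mb. The 2 Mb limit marks no step, since peaks from 1.9 to 2 Mb had a mean percentile of 76.5 and those from 2 to 2.1 Mb of 75.3.

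**Figure D1:**
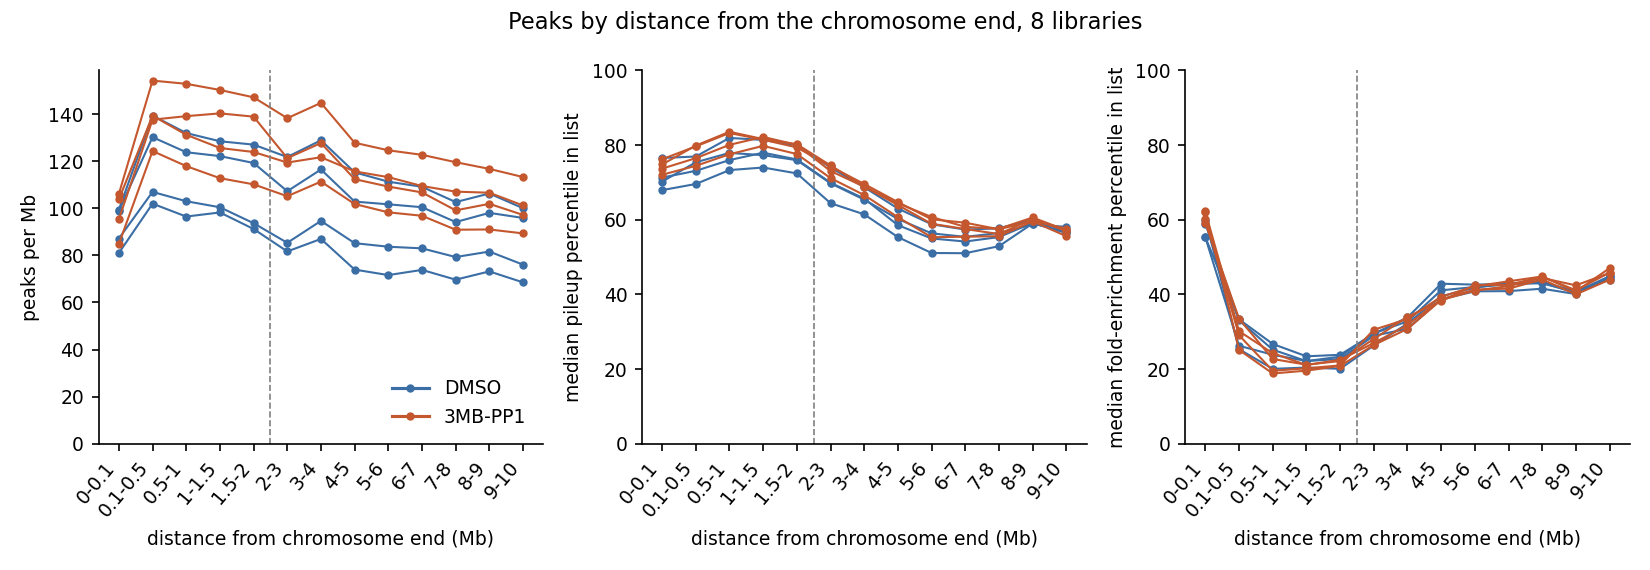
Peaks per Mb, median pileup percentile and median fold-enrichment percentile (y axes) against distance from the chromosome end in Mb (x axis), 1 line per library, coloured by treatment; the dashed line marks 2 Mb. Pileup percentile is highest between 0.5 and 2 Mb, while fold-enrichment percentile falls from 59.2 in the outermost 0.1 Mb to 21.3 between 1 and 1.5 Mb.

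A peak shared by all 8 lists lay close to most chromosome ends. Overlapping peaks of the 8 lists were merged into 583075 regions, 23777 of them subtelomeric, and 2285 of the subtelomeric regions (9.61%) were called in all 8 lists, where the share over all regions was 6.2%. At 28 of 39 ends the outermost such region lay within 20 kb of the end. On 11 short arms it began between positions 10012 and 11540, and its mean pileup percentile over the 8 libraries was above 95 at 21 of the 28 ends. The distance of 0 at 15 long arms follows from measuring to the last peak. Whether the bases before those short-arm positions could yield a peak was not tested. Fold enrichment in these 28 regions ran from 2.75 to 20.9. In the chromosome 1 short-arm region (chr1:10069-10611) pileup was 152.0, 118.5, 164 and 125 in the DMSO lists and 84.3, 84.7, 99.6 and 62.8 in the 3MB-PP1 lists. The groups do not overlap, but these are pileups with no stated scaling between libraries, and the region's mean percentile was 99.9. At 31 of the 37 ends outside chromosome 8, no annotated start site lay within 1 kb of the outermost region. How reads from copied segments were placed is not given in the sources used here, so values in the outermost segments are uncertain between copies.

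Transfer RNA genes on the long arm of chromosome 5 carried the strongest subtelomeric peaks. Of the 10 regions with the highest mean pileup percentile among those in all 8 lists, 5 lay between positions 181187537 and 181223937 of that chromosome, and each held at least 1 tRNA gene. The first, chr5:181221535-181223937, covers the TRIM41 start site printed above, the lysine and valine tRNA genes TRK-CTT2-3 and TRV-CAC1-5 and the microRNA gene MIR4638. Its pileup was 360, 348, 479 and 317 in the DMSO lists and 212, 218, 250 and 183 in the 3MB-PP1 lists, and in each of the 8 lists it was the peak of rank 2 on the autosomes. Its fold enrichment was only 2.68 to 3.59. The tRNA region at chr5:181217120-181218477, with the valine tRNA gene TRV-AAC1-4, held rank 3 or 4 in every list.

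Of the other 5 regions, 1 also held tRNA genes. This region on the long arm of chromosome 1 (chr1:248872801-248875111), which overlaps tRNA genes for leucine and glutamate and the transposon-derived gene PGBD2, held ranks 6 to 16. The region in INPP5A, which encodes an inositol phosphatase (chr10:132536796-132538450), held ranks 5 to 17. CIRBP (chr19:1268214-1269807) held ranks 19 to 71 and the region at UVSSA (chr4:1345960-1347748), a transcription-coupled repair gene, ranks 23 to 80. The region at the noncoding RNA genes LINC03015 and LINC03014 (chr7:148970-150435) held ranks 20 to 76. These 10 regions were all among the first 85 autosomal peaks of every list.

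With 3MB-PP1, subtelomeric peaks were shorter. Median length was 464, 426, 459 and 400 bp in the DMSO lists and 307, 333, 307 and 364 bp in the 3MB-PP1 lists, so that every 3MB-PP1 list lay below every DMSO list. The means were 437 ± 30.0 and 328 ± 27.1 bp (SD, n = 4), a difference of -110 bp by exact two-sided permutation of 4 against 4 libraries (p = 0.0286, the smallest possible; adjusted over 8 measures p = 0.17). With the replicate number as a block, p was 0.125, the smallest that 4 pairs allow. The difference was -155 bp between the odd-numbered replicates and -64.5 bp between the even-numbered ones. It was not particular to chromosome ends, since the inward difference was -97.0 bp and that over all peaks -98.8 bp. Among peaks whose −log10 q was 5 or more, it was -266 bp (exact permutation p = 0.0286). The outer-minus-inward length was 44.5 ± 9.1 bp with DMSO and 32 ± 3.9 bp with 3MB-PP1 (exact permutation p = 0.057, adjusted p = 0.17), and without DMSO replicate 2 this p was 0.0286. Its difference by treatment was -12.5 bp, and -68.6 bp among the peaks whose −log10 q was 5 or more (exact permutation p = 0.14). The smallest peak width differed between lists, which bears on these lengths. Among peaks of at least 135 bp, median subtelomeric length was 464, 437, 470 and 421 bp with DMSO. It was 357, 376, 355 and 393 bp with 3MB-PP1, a smaller gap than over the full lists.

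The shortening was also measured within the same regions. Over the 2285 subtelomeric regions called in all 8 lists, the median length covered by peaks was 1090, 1015, 1192 and 1017 bp in the DMSO lists and 878, 872, 944 and 826 bp in the 3MB-PP1 lists. The groups do not overlap (difference -198 bp, exact permutation p = 0.0286), and the inward regions differed by -217 bp. Of these 2285 regions, 189 (8.27%) were shorter in every 3MB-PP1 list than in any DMSO list and 8 (0.350%) were longer. Over the 36170 such regions of all chromosomes the shares were 10.9% and 0.379%, so shortening was not more frequent near ends.

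The number of subtelomeric peaks did not differ beyond the spread between libraries. It was 7484, 7804, 9542 and 10121 with DMSO and 10681, 10006, 11604 and 8920 with 3MB-PP1, where replicate 4 lies below 2 DMSO lists. The mean difference was 1565 peaks (exact permutation p = 0.17, adjusted p = 0.23), 2630 between odd-numbered and 500.5 between even-numbered replicates. Among peaks of at least 135 bp, the numbers were 7484, 7613, 9340 and 9571 with DMSO. They were 9110, 8933, 9943 and 8234 with 3MB-PP1. As a share of each list's peaks, without that limit on width, the members made up 4.99 ± 0.11% with DMSO and 4.97 ± 0.26% with 3MB-PP1 (exact permutation p = 0.91). The outer-to-inward density ratio was 1.21 ± 0.05 and 1.19 ± 0.05 (p = 0.51 by the same exact test). Median pileup percentile was higher with 3MB-PP1 in 4 of 4 same-numbered pairs, 79.8 ± 1.83 against 76.1 ± 3.24, and the difference of 3.63 points had an exact permutation p of 0.086 and an adjusted p of 0.17. By fold enrichment the same difference was -1.67 points (p = 0.26 by the same exact test).

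**Figure D2:**
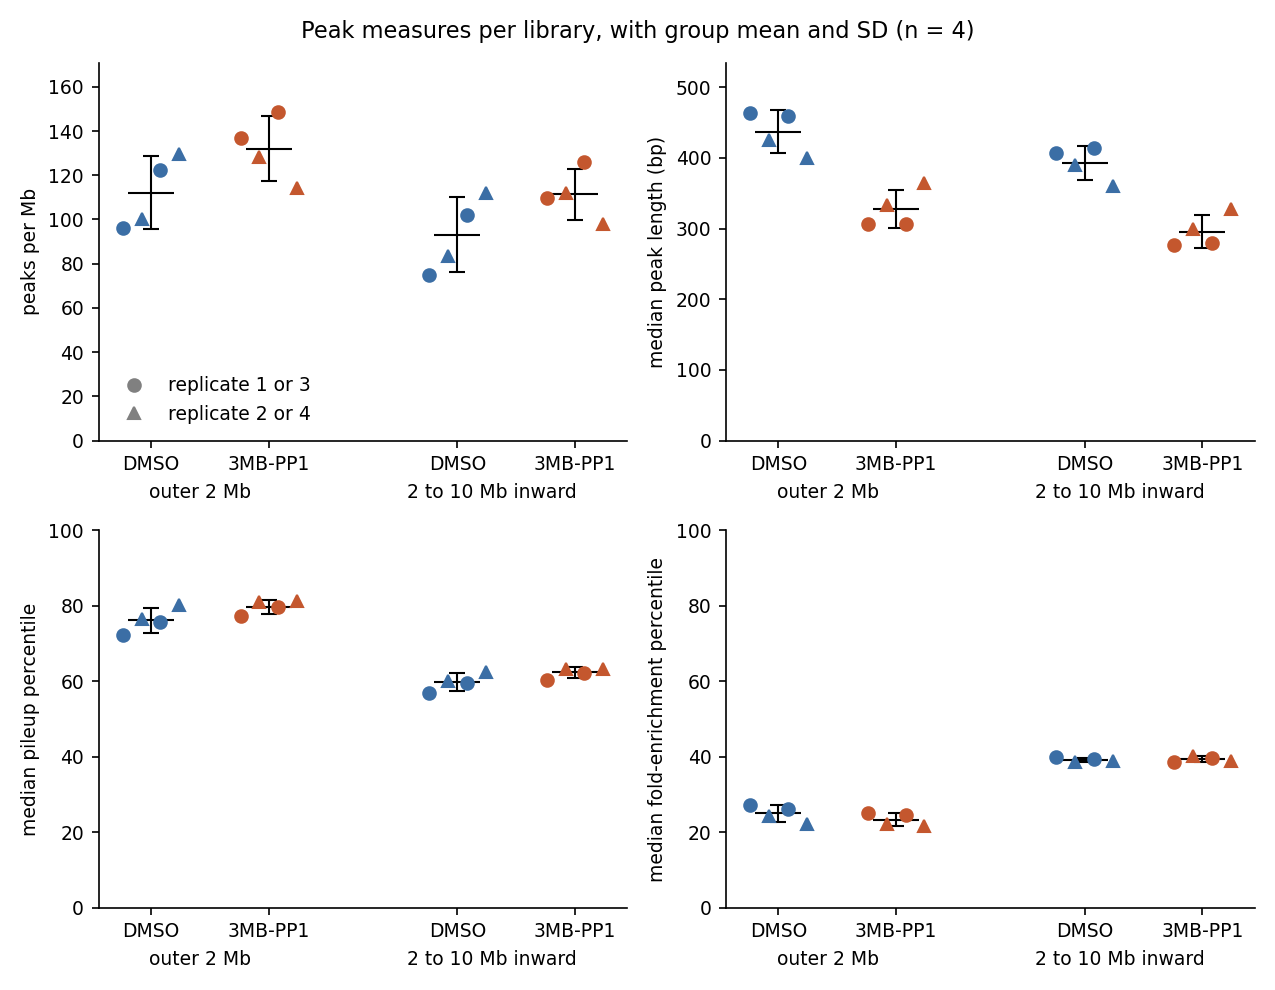
Peaks per Mb, median peak length in bp, median pileup percentile and median fold-enrichment percentile (y axes) in the outer 2 Mb and the 8 Mb inward, by treatment (x axis); circles are replicates 1 and 3, triangles 2 and 4, and bars the mean and SD of 4. Median subtelomeric length runs from 400 to 464 bp with DMSO and from 307 to 364 bp with 3MB-PP1, and pileup and fold enrichment order the outer and inward zones in opposite ways.

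The treatment difference in number had the other sign among peaks whose −log10 q was 5 or more. The share of subtelomeric peaks that reached this level was 12.6%, 9.15%, 9.90% and 6.19% with DMSO and 7.22%, 5.66%, 6.57% and 5.30% with 3MB-PP1. The mean difference in number was then -165 peaks (exact permutation p = 0.17) and that in share of the list 0.76 percentage points (p = 0.057 by the same exact test). Neither passed.

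Short and long arms were compared on the 17 chromosomes with members at both ends. The density at short-arm ends was 0.958 ± 0.040 times that at long-arm ends (SD, n = 8; exact sign-flip p = 0.031, adjusted over 3 arm comparisons p = 0.031). Leaving out any 1 library other than 3MB-PP1 replicate 2 or 4 raised this p to 0.0625, and among peaks whose −log10 q was 5 or more the ratio was 0.795 (exact sign-flip p = 0.0078). The arms were measured unlike each other, short arms from the start of the sequence and long arms from the last peak. With short arms measured from the first peak, the density ratio was 0.977 and did not pass (exact sign-flip p = 0.16). Short-arm minus long-arm median length was -17.7 ± 15.9 bp, and negative in 7 of 8 libraries (exact sign-flip p = 0.023, adjusted p = 0.031). Their median pileup percentile was lower in 8 of 8 libraries, 74.9 ± 3.33 against 81.0 ± 2.62, with a difference of -6.15 ± 1.11 points (exact sign-flip p = 0.0078, adjusted p = 0.023). Without chromosomes 10 and 12 the difference was -2.46 points (p = 0.0078 by the same exact test). It did not pass among peaks whose −log10 q was 5 or more (-0.712 points, exact sign-flip p = 0.27) or with ranks by −log10 p (-0.949 points, exact sign-flip p = 0.18). By fold enrichment short arms ranked higher, by 5.26 points (exact sign-flip p = 0.0078). The share of subtelomeric peaks on the short arm was 47.7%, 49.1%, 47.3% and 49.2% with DMSO and 49.1%, 50.3%, 48.6% and 50.1% with 3MB-PP1. It was higher with 3MB-PP1 in 4 of 4 pairs, by 1.22 percentage points on average, and did not pass (exact permutation p = 0.14, adjusted p = 0.23).

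Individual ends varied more than the arms. The mean number of peaks per Mb over the 8 libraries was highest at 2p (181, range 146 to 204), 12p (152.5) and 7q (152) and lowest at 3p (30.2, range 10.5 to 44.5), 1p (72.3) and 19q (84.9). The median end had 123 peaks per Mb, 38 of 39 ends stood above the median of 69.7 over all 1315 windows of 2 Mb with at least 20 peaks on average, and 3p was the exception. Mean pileup percentile ran from 26.0 at 3p to 93.1 at 10q and was above 50 at 35 of 39 ends. Over all autosomal peaks outside chromosomes 10 and 12 the median percentile was 47.7 to 48.8, so those chromosomes ranked higher as a whole. Pileup was not corrected for copy number, so the rank of 10q need not be a property of its end. Density and pileup order the ends differently, since 1p, the second sparsest, stood at percentile 89.3. The short arm was denser on 9 of 17 chromosomes and had the higher pileup percentile on 7.

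**Figure D3:**
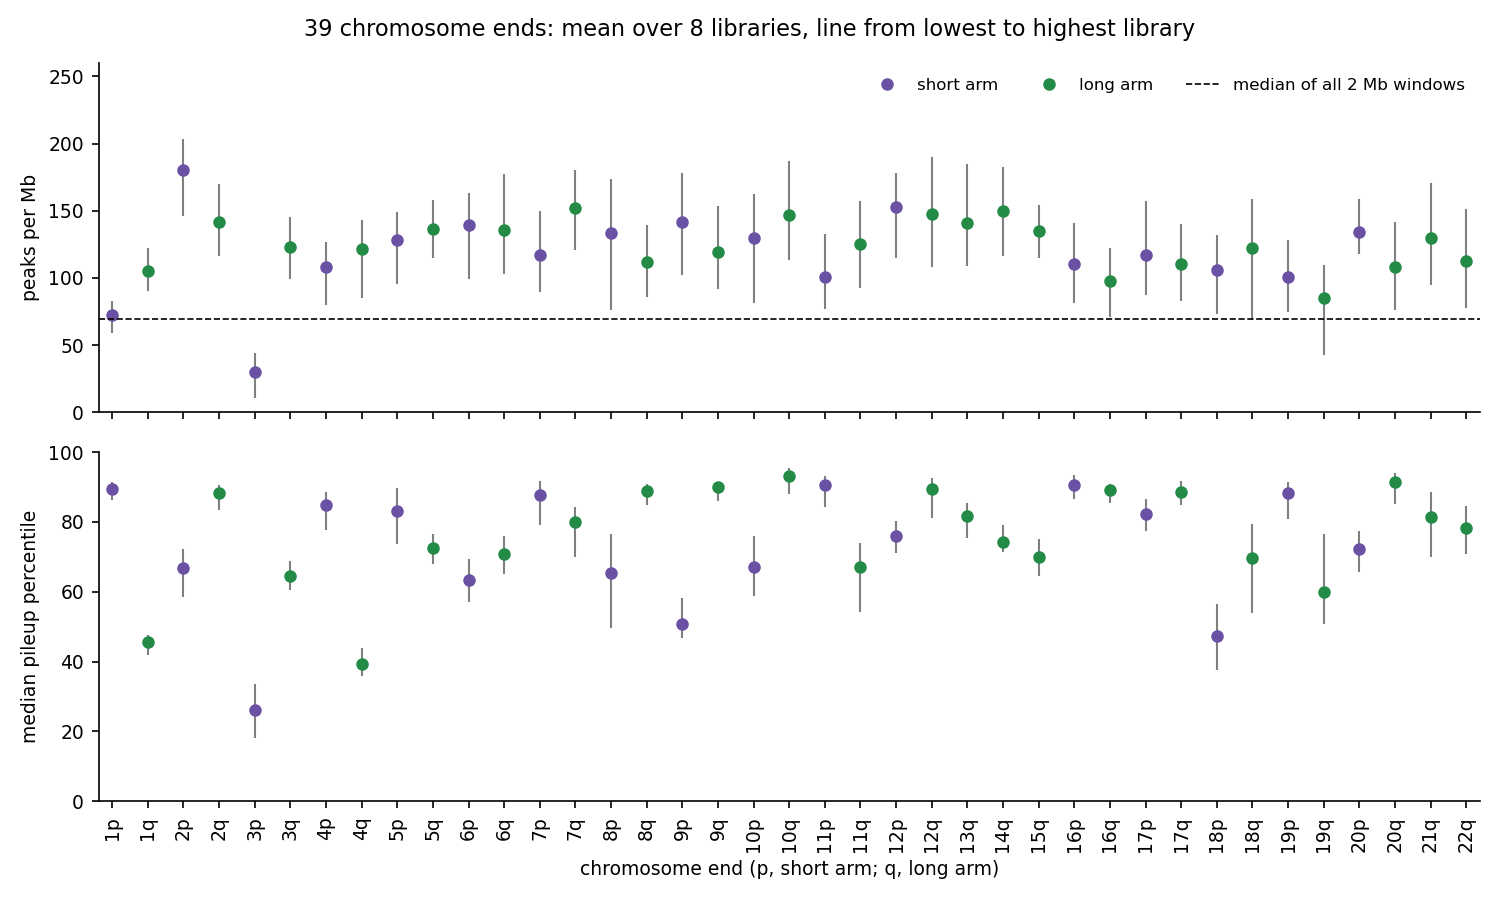
Peaks per Mb (upper y axis) and median pileup percentile (lower y axis) for each of the 39 chromosome ends (x axis); points are means of 8 libraries, vertical lines run from the lowest to the highest library, purple marks short and green long arms, and the dashed line in the upper panel is the median of all 2 Mb windows. The end 3p is lowest in both panels, and 1p is sparse but stands at percentile 89.3.

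No chromosome end had a higher share of peaks in every 3MB-PP1 list than in any DMSO list, and 4 of 39 had a lower one. Over all 1315 windows, 6.69% were higher and 8.29% lower by that rule. At 1q the share of the list's peaks was 0.125%, 0.150%, 0.121% and 0.124% with DMSO and 0.0855%, 0.103%, 0.0806% and 0.109% with 3MB-PP1, or 0.130 ± 0.0132% and 0.0945 ± 0.0136% (mean ± SD, n = 4). The other 3 were 2p, where the share was 0.204 ± 0.0117% and 0.176 ± 0.0121%, 15q with 0.152 ± 0.00318% and 0.132 ± 0.00669%, and 1p with 0.0788 ± 0.000601% and 0.0730 ± 0.00478%. Each had an exact permutation p of 0.0286 and an adjusted p over all windows of 0.19, so none passed the correction. Counted by pairs instead, 10 ends were higher with 3MB-PP1 in all 4 same-numbered pairs and 6 were lower, where 25% and 19.7% of all windows were. Without DMSO replicate 4, 6 ends were higher and 6 lower in every 3MB-PP1 list. With fewer lists this rule is easier to meet, and its share over all windows is not given here.

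Few subtelomeric regions were called in 1 treatment only. Of 23777 regions, 23 (0.0967%) were called in 4 of 4 DMSO and 0 of 4 3MB-PP1 lists, against 0.12% of all regions, and 45 (0.189%) in the opposite way, against 0.149%. Which direction had more regions depended on the lists, since lists of equal length gave 37 and 19, and a required coverage of 50% of the region gave 53 and 9. The shares over all regions under these settings are not given here. The 5 with the highest pileup among those of DMSO lay at LINC01168 (chr10:132970863-132971340), at chr10:132980901-132981520, in FGFR3 (chr4:1797315-1798702), in the kinase gene MAPK15 (chr8:143717376-143718379) and in IQSEC3 (chr12:147081-147591). All 5 were weak peaks, with fold enrichment between 1.77 and 2.32 and −log10 q of at most 2.79. Among the first 5 of 3MB-PP1, the region in LINC01237 and FAM240C (chr2:241896286-241897003) had −log10 q of 14.6 to 16.5 and fold enrichment of 3.66 to 5.05. The other 4 were in the potassium channel gene KCNG2 (chr18:79866734-79867101), the immunoglobulin heavy chain locus (chr14:105686640-105687673), and at chr12:131391578-131392446 and chr10:131830604-131831271, with −log10 q of at most 2.59. A region without a call can still hold signal below the caller's threshold.

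Requiring a −log10 q of 5 or more left 1176 subtelomeric regions, of which 4 were called with DMSO only and 2 with 3MB-PP1 only. Over all 19784 such regions the shares were 1.15% and 0.0152%, or 228 and 3 regions. In the inward 8 Mb, 30 of 2631 were called with DMSO only and 0 with 3MB-PP1 only. The 2 subtelomeric regions are among the 3 on the autosomes, and counts this small cannot be read as a trait of chromosome ends. A region without a call here can still hold a peak whose −log10 q is below 5.

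Protein-coding start sites were denser in the outer 2 Mb, with 966 genes and 13.1 genes per Mb, than in the inward 8 Mb, with 7.25 genes per Mb. Start sites on chromosome 8 were not analysed here. The 300-base windows around the 1291 subtelomeric start sites had a median GC content of 69.0% and a median of 30 CG, against 64.3% and 23 inward and 62.7% and 21 over all 21156. Peaks lay within 1 kb of 57.9% of them in all 8 lists and of 14.2% in none, against 59.4% and 12.04% over all start sites. In each class with 10 or more CG the subtelomeric share was the lowest of the 3 zones. Of those with 30 or more CG, 77.6% of 655 had a peak in all 8 lists, against 79.0% of 1059 inward and 83.3% of 4506 elsewhere, and of those with 10 to 19 CG the shares were 35.1%, 48.3% and 68.6%. With 0 to 9 CG they were 17.1%, 15.9% and 18.5%. These are shares of start sites and were not tested. Among the subtelomeric sites, those with a peak in all 8 lists had a median of 36 CG and those with none 11, and FGFR3, printed above with 51, is one of 41 sites with 30 or more CG and no peak.

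Motifs were counted in the same windows on both strands, with overlaps allowed. The telomeric hexamer TTAGGG was in 6.20% of subtelomeric windows, against 9.46% inward and 8.92% of all. The Sp1-type GC box GGGCGG was in 68.6%, against 60.8% inward and 56.6% of all, and the CCAAT box in 31.4%, 32.5% and 34.4%. A match is a string of letters, not a bound site.

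Peaks at and away from start sites were then ranked separately. Of subtelomeric peaks, 8.36 ± 0.75% (SD, n = 8; chromosome 8 left out here and in the ranks by start site) lay within 1 kb of a protein-coding start site, against 5.87 ± 0.63% inward. At start sites the median pileup percentile was 96.3 in the outer zone and 94.2 inward, a difference of 2.14 ± 0.61 points. Away from start sites it was 75.7 against 59.3, a difference of 16.4 ± 0.73 points (exact sign-flip p = 0.0078 for each). By fold enrichment both differences were negative, -11.2 ± 6.50 points at start sites and -15.0 ± 1.93 points away from them (exact sign-flip p = 0.0078 for each). The share of subtelomeric start sites with a peak was 70.9 ± 1.5% with DMSO and 72.1 ± 3.5% with 3MB-PP1 (SD, n = 4; exact permutation p = 0.57). None of the 1291 had peaks in all 4 lists of 1 treatment and none of the other, where 0.0473% of all start sites had them with DMSO only and 0.0756% with 3MB-PP1 only.

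**Figure D4:**
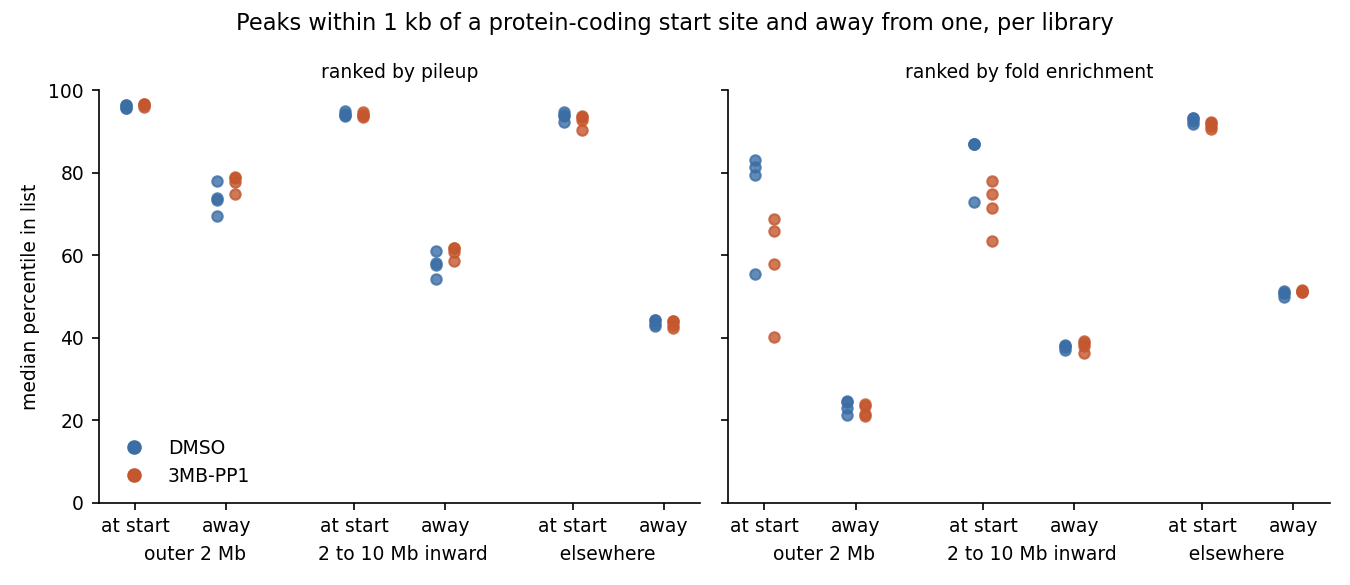
Median percentile in the list (y axis), ranked by pileup and by fold enrichment, for peaks within 1 kb of a protein-coding start site and away from one, in the outer 2 Mb, the 8 Mb inward and elsewhere (x axis); each point is 1 library, coloured by treatment, with chromosome 8 left out. Away from start sites the mean pileup percentile is 75.7 in the outer zone and 59.3 inward, and the order is the opposite by fold enrichment.

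Across 37 ends with start-site data, ends with more genes had higher pileup and fewer peaks. Spearman's rho of the number of protein-coding genes, 2 to 65 per end, with mean pileup percentile was 0.60 (Pearson's r = 0.48) and with peaks per Mb -0.50 (Pearson's r = -0.35). This is a description across ends of the same 8 libraries, which also differ in base composition. The 2 genes with start sites at 3p are the neuronal adhesion genes CHL1 and CNTN6, and 4q, with 3 genes, stood at percentile 39.4.

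Lists of genes known near chromosome ends were followed by the number of lists with a peak within 1 kb of either gene end. By this rule 63.6% of 15101 protein-coding genes outside chromosome 8 were called in every list and 7.25% in no list, and of the 975 subtelomeric ones 63.8% and 8.31%. Of 27 subtelomeric members of copied families, all 8 lists had a peak at 5 and no list at 13. Among the 9 of them that are protein-coding and in that background, the counts were 3 and 3. The 5 were DDX11L10, FRG1, a gene next to the repeat linked to facioscapulohumeral dystrophy, and the zinc finger genes ZNF595, ZNF718 and ZNF721, at mean pileup percentiles from 80.8 (ZNF595) to 97.4 (DDX11L10). The 13 included DUX4, the transcription factor gene of that repeat, FRG2, WASH7P and OR4F5. WASHC1 (a subunit of an actin-regulating complex) had a peak at a gene end in 0 DMSO and 2 3MB-PP1 lists but within 1 kb of its listed start site in 2 DMSO and 0 3MB-PP1 lists. Copies of these genes are near-identical, and reads could have been split between them.

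In the alpha globin neighbourhood on 16p, every list had a peak at 6 of 10 genes, and the other 4 had one in 1 to 6 lists. Only 6 of these genes are in the protein-coding background of 63.6%, and 5 of the 6 were called in every list. So few genes cannot be set against that share. The RNA polymerase III subunit gene POLR3K and the spliceosomal SNRNP25 share a peak at mean percentile 98.7 ± 0.47 (SD, n = 8), and RHBDF1, MPG, a DNA glycosylase gene, and NPRL3, whose introns hold the globin enhancers, had mean percentiles of 97.6 to 98.2 at their gene ends. The globin genes were called less evenly, HBQ1 in 8 lists, HBZ in 2 DMSO and 4 3MB-PP1 lists, HBA1 in 4 and 2, HBA2 in 3 and 0, and HBM in 0 and 1. None of these met the rule of 4 of 4 against 0 of 4. How reads were placed between the similar genes HBA1 and HBA2 is not given, so their separate calls are uncertain.

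Genes linked to telomere position effects, in which distance to the telomere affects expression, gave partial calls. TERT, the catalytic subunit of telomerase, had a peak at its start site in 3 lists of each treatment, at percentiles 92.8, 89.6 and 94.7 with DMSO and 91.7, 95.5 and 96.6 with 3MB-PP1. The hTERT RPE-1 line was immortalised with telomerase, and whether reads from the introduced TERT add to these peaks was not tested. The interferon-induced gene ISG15 had a start-site peak in 4 DMSO and 3 3MB-PP1 lists, at a mean percentile of 90.2 ± 1.92 over those 7. The gel-forming mucin genes on 11p had few peaks, MUC6 and MUC5AC in 0 lists, MUC2 in 3 and MUC5B in 4. Of 9 TNF receptor and immune genes, 2 had a peak in all 8 lists, the interferon-induced membrane protein genes IFITM2 and IFITM3 (percentiles 89.5 and 96.5), and TNFRSF18 had none. The mucin and immune lists are too short to set against the 63.6% of all protein-coding genes.

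Of 26 subtelomeric growth and signalling genes, 17 had a peak at an end in all 8 lists, 3 in none and 6 in some. Among the 21 of them in the protein-coding background of 63.6%, the counts were 15 in all 8 lists and 3 in none, and the difference from that background was not tested. The recombination gene RAD52 stood at mean percentile 99.9 ± 0.023 (SD, n = 8), the phosphatase gene DUSP22 at 99.6 ± 0.080, AXIN1, a Wnt pathway scaffold, at 99.4 ± 0.11, HRAS at 97.4 ± 0.92 and the forkhead gene FOXC1 at 96.8 ± 0.83. For RAD52 this is the peak at the upstream of its 2 listed start sites, and the downstream one stood at 98.0. No list had a peak at the ends of FGFR3 and CNTN6, or at the listed ends of ZMYND11, whose downstream start site printed above stood at 98.9. No gene of any of these lists was called in all 4 lists of 1 treatment and none of the other.

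As a check of the cell type, marker genes fixed for epithelium, retinal pigment epithelium, mesenchyme and blood were followed in the same way. The epithelial markers KRT8, KRT18 and EPCAM had a peak at a gene end in 8 of 8 lists, CDH1 in 6 and KRT7 in 1. Of the pigment epithelium markers, MITF, OTX2 and PMEL had one in 8 lists, RLBP1 in 5, TYR and BEST1 in 2 and RPE65, a visual cycle enzyme of mature cells, in 0. VIM and COL1A1 had one in 8 lists. The blood marker PTPRC had none, and CD3E had one in 8 lists. An accessible gene end is not expression, so the check covers accessibility only.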

How the data were processed

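ATAC-seq was analysed in 8 libraries, 4 per treatment, from 1 deposited peak list per library. Per the submitters' processing notes, the build was hg38 and the tools included MACS2 and DESeq2, with no role or version. The aligner, read filters and any Tn5 shift are not given in the sources used here, and each can alter how many peaks are called and how wide they are. Each line of the deposited lists gives a position, a length in bp, a pileup (a coverage signal), a −log10 p, a fold enrichment (a ratio to background) and a −log10 q. The deposited lists reach a q of 0.1 and give no read totals, so the depth is unknown. All of these came from the authors' peak calling, and here they describe, order or select peaks inside 1 list at a time.

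The members and gene lists were chosen with earlier results of these data known. From the lists were computed peak number, density, median length and median within-list percentile for the outer 2 Mb and for 2 to 10 Mb. DMSO and 3MB-PP1 means were set against all 70 assignments of 4 of 8 libraries (exact permutation, two-sided, smallest p 0.0286), and zones and arms against all 256 sign patterns (exact sign flip, two-sided). Benjamini-Hochberg adjustment covered 8 treatment, 3 position and 3 arm measures, and a result passed at a raw exact p of 0.05 or less. Adjusted values are printed beside it, and none of the treatment measures passed after adjustment. Windows of 2 Mb were adjusted over 1315 windows. Same-numbered libraries deviated together over these windows, with correlations of 0.69, 0.62, 0.40 and 0.49 for numbers 1 to 4. The number, which the sample titles give, was therefore also used as a block for differences by treatment. The sign-flip tests of zones and arms used no block, so their p-values overlook this pairing. Odd and even numbers also differed from each other, and their values are given separately.

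Named regions were the 10 with the highest mean pileup percentile among those in all 8 lists, up to 5 called in 1 treatment only in each direction, and the outermost ones, and named ends the 3 densest, the 3 sparsest and those whose groups do not overlap. Printed promoters of OR4F5, FGFR3 and ZMYND11 lie outside that rule and were chosen after their values were seen. Genes came from RefSeq tables of GRCh38.p14 (56756 gene entries on chromosomes 1 to 22). Below 10 Mb, genes at named regions were kept only where the start-site table places them on the chromosome, because the gene table also lists alternate sequences there. Zones, merging (also against bedtools 2.31.1) and tests were checked on simulated data. Alternatives were a −log10 q of at least 5, lists of equal length, a common smallest width of 135 bp, terminal zones of 1 and 5 Mb, the outermost 100 kb or chromosomes 10 and 12 left out, distance from the first peak, ranking by fold enrichment, merging within 500 bp, 50% coverage, each library left out, and odd or even replicates only. Ranking by −log10 p, lengths within shared regions and leaving out libraries for the ends were added after the data were seen. Python 3.11.15, numpy 2.4.6, pandas 2.3.3 and matplotlib 3.10.9 were used.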

Additional observations from a re-analysis of the deposited data

How the results depend on the processing

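Of 303 values under alternatives, 240 were counted as unchanged. For measures with a test, this means the same direction and the same side of the threshold. Values from odd or even replicates alone had no test, and needed the same direction and a shift smaller than the SD between libraries. Counts of ends and regions had no test either, and needed to stay near the main count. Causes of the changed values were not tested. Differences by treatment are 3MB-PP1 minus DMSO. Among peaks whose −log10 q was 5 or more, the treatment difference was -165 in number, 0.760 in percent share, 0.200 in density ratio and -2.63 in outer-minus-inward percentile. There the outer-minus-inward length was -43.9 bp, and the short-minus-long-arm differences were -31.8 bp and -0.712 points. The difference in share was also positive with lists of equal length (0.123), a common smallest width (0.0716), a 5 Mb zone (0.135), no outermost 100 kb (0.000759) and even-numbered replicates (0.0610). The difference in density ratio was 0.0061 with equal lengths and 0.0048 at 5 Mb. The arm density ratio was 0.968 without the outermost 100 kb and 0.977 by distance from the first peak, and the arm length difference was -5.75 bp at 5 Mb and -12.1 bp without chromosomes 10 and 12. Ranked by fold enrichment, the treatment difference was -1.67 points, that of outer minus inward -1.88, the zone difference -15.1 and the arm difference 5.26. Ranked by −log10 p the arm difference was -0.949. With the replicate block the length difference of -109.5 bp had an exact p of 0.125, and the block changed no other call among the treatment measures. Odd-numbered replicates alone gave -154.5 bp for length and -22 bp for outer-minus-inward length, and even-numbered ones -64.5 and -3 bp.

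Ends with a higher share in every 3MB-PP1 list numbered 5 at −log10 q of 5 or more and 10 with the block by pairs. Ends with a lower one numbered 0 at that level and 2 with equal lengths. Regions called in 1 treatment only, DMSO and 3MB-PP1, numbered 4 and 2 at that level, 37 and 19 with equal lengths and 53 and 9 where a peak had to cover 50% of the region. Apart from the pairs and the regions at that level, no share over all windows or regions is given beside these counts. They therefore cannot be set against the autosomes.

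Leaving out 1 library at a time, the treatment difference ran from -0.116 to 0.0926 in share, turning positive when DMSO replicate 4 (0.0217) or 3MB-PP1 replicate 3 (0.0926) was left out. It ran from -0.0439 to 0.00159 in density ratio, positive only without DMSO replicate 1, and from -15.3 to -8.33 bp in outer-minus-inward length. The arm density ratio ran from 0.951 to 0.967. Ends higher with 3MB-PP1 ran from 0 to 6. Regions in 1 treatment ran from 36 to 71 (DMSO) and from 62 to 153 (3MB-PP1), since fewer lists had to match. The shares over all windows and regions with a library left out are not given here. The lists give no read totals, so a weak peak missed at low depth cannot be told apart from a closed site.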
